A study of Mus musculus with 6 samples.

Results

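The genes described here are 10 transcription factors and stress regulators of the ATF4 branch, measured in mouse Ba/F3 cells with and without the TPR-FGFR1 fusion. They were chosen by name, with earlier results of these data known. Their rows are those whose Ensembl gene ID carries their symbol in GENCODE M21, out of 57010 IDs in the deposited table. The transcription factors are Atf4, Atf5, Ddit3, Cebpb and Cebpg. The stress effectors are Trib3, Chac1, Sesn2, Ddit4 and Fam129a. All 10 were found, and 9 of them averaged 1 TPM or more across the 6 libraries and were tested. Chac1 did not reach that level. TPM is a length-scaled share of a library's transcripts.

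Both groups were Ba/F3, a mouse haematopoietic line that normally grows only with interleukin-3. The 3 libraries of the first group came from cells infected with lentivirus to express TPR-FGFR1 stably, a fusion of a nuclear pore protein with a receptor tyrosine kinase, and selected for 6 days with 5 µg/ml puromycin. The other 3 came from cells with an empty vector, whose genotype label is WT, and the labels do not say how those were selected. Whether interleukin-3 was present, whether the cells were clones, and whether the replicates were separate cultures are also not given. The p-values therefore rest on differences among these 6 libraries, whose spread could be purely technical.

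The fusion libraries held 0.7, 0.58 and 1.26 TPM of Fgfr1 in replicates 1, 2 and 3, against 0.02, 0.04 and 0.05 TPM in the empty vector libraries. The cells are labelled as B lymphocytes, but only Cd79b of 10 B-lineage markers had a mean of at least 1 TPM, and Rag1 was listed at 0 in all 6 libraries. The B-lineage sum was 4.78 to 7.83 TPM in the fusion libraries and 6.47 to 7.30 TPM in the empty vector libraries. Of 10 markers of haematopoietic and interleukin-3 dependent cells 8 reached 1 TPM, and Kit was listed at 0. Of those 8, 4 fell and 0 rose (limma adjusted p under 0.05), beside 10% and 10.2% of all tested genes. The list summed to 685 to 835 TPM in the fusion libraries and 910 to 965 TPM in the empty vector libraries. Of 6 erythroid markers all reached 1 TPM, 1 fell and 1 rose. Their sums were 274 to 491 TPM in fusion libraries and 266 to 378 TPM in empty vector libraries. Of 8 myeloid and 6 mast cell and basophil markers, 3 and 2 reached it, and 1 and 0 of these fell. Markers of T and NK cells summed to at most 0.1 TPM and those of fibroblasts and epithelium to at most 0.68 TPM. The part of cell state in the results below was not tested. In such bulk RNA, fewer cells of a kind and less RNA per cell cannot be told apart. TPR-FGFR1 replicate 3 stood apart from its group. Over all tested genes its log2(TPM + 1) values correlated with the empty vector libraries at a Pearson r of 0.966 each, and with fusion replicates 1 and 2 at 0.963 and 0.962, while those 2 correlated with each other at 0.978. Depth is unknown, because TPM keeps no read number.

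ATF4 is the central transcription factor of the integrated stress response. When kinases that sense amino acid shortage, misfolded proteins, viral RNA or lack of haem phosphorylate the initiation factor eIF2, general translation slows while the Atf4 transcript is translated more. ATF4 protein, often as a dimer with C/EBP factors, then drives genes for amino acid supply and stress handling, among them further transcription factors such as CHOP, the product of Ddit3. Because much of this control acts on translation, the level of Atf4 mRNA and that of ATF4 protein need not move together.

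ATF4 dimers with C/EBP factors bind the C/EBP-ATF response element, so the bases before the members' transcription starts were searched. Starts and sequences came from RefSeq on build GRCm38.p6 and were found for all 10 members, with 2 starts for Atf5. In the 250 bases before each start, the core TGATGNAA on either strand was found only in Chac1, while 3.45% of 32851 promoters of that length held it. The cAMP response element TGACGTCA was found in none of the 10, and 1.55% of promoters held it. The NF-Y motif CCAAT, on either strand, was found before Atf4, Ddit3, Chac1, Sesn2, Cebpg, Ddit4 and the second Atf5 start, and 33.8% of promoters held it. Some of the stretches are shown, 5′ to 3′ on the strand of the gene, with matches to any of the 3 motifs in capitals. They are those of Atf4, of Chac1 with the only response element core, and of Atf5 and Fam129a, which fell most. The Atf4 stretch lies at chr15:80254934-80255183 on the plus strand and that of Chac1 at chr2:119350992-119351241 on the plus strand. The Atf5 stretch, before its first start, lies at chr7:44816659-44816908 on the minus strand, and that of Fam129a, named Niban1 in RefSeq, at chr1:151571123-151571372 on the plus strand.
Atf4: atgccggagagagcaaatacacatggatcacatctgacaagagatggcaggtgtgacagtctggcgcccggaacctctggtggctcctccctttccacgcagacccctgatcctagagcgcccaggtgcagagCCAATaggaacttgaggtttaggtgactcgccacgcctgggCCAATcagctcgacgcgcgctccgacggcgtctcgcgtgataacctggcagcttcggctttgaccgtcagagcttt
Chac1: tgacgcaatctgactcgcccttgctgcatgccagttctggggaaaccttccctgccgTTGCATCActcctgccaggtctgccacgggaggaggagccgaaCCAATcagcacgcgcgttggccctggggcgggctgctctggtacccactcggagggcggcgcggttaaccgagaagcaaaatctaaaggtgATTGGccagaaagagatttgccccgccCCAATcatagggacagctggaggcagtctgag
Atf5: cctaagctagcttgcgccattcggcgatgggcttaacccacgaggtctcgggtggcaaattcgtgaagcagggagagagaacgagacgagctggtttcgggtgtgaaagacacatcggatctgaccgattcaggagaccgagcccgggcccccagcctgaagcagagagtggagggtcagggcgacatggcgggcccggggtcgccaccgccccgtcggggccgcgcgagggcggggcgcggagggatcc
Fam129a: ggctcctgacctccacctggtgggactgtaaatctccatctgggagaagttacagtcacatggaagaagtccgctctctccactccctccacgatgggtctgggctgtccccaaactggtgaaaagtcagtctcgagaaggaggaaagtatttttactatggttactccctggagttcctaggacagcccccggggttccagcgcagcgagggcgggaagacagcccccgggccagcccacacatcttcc
The Chac1 core reads TTGCATCA on the gene's strand and starts 193 bases before the transcription start. The Atf5 and Fam129a stretches hold none of the 3 motifs, and a match or its lack in this window says nothing of binding in these cells.

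Of the 9 tested members, 6 fell in TPR-FGFR1 cells (limma adjusted p under 0.05) and 0 rose, while 10% of all 12862 tested genes fell and 10.2% rose. Because the members were chosen with earlier results of these data known, this contrast is a description and not independent evidence. At an unadjusted p under 0.05, 7 were lower and 0 higher. The share of all tested genes at that looser threshold is not given, here or for the lists below. Counts at it thus have no background beside them. All 4 tested stress effectors fell, and 2 of 5 transcription factors did. The median log2 fold change over the 9 was −0.72, beside 0.02 over all tested genes. All 3 fusion libraries lay below all 3 empty vector libraries for 7 members, against 20.8% of tested genes. For each of those 7 the exact two-sided permutation p was 0.1, which is the lower bound for 3 libraries against 3. Without TPR-FGFR1 replicate 3, 8 members fell, as did 3012 of the 12862 tested genes.

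**Figure D1:**
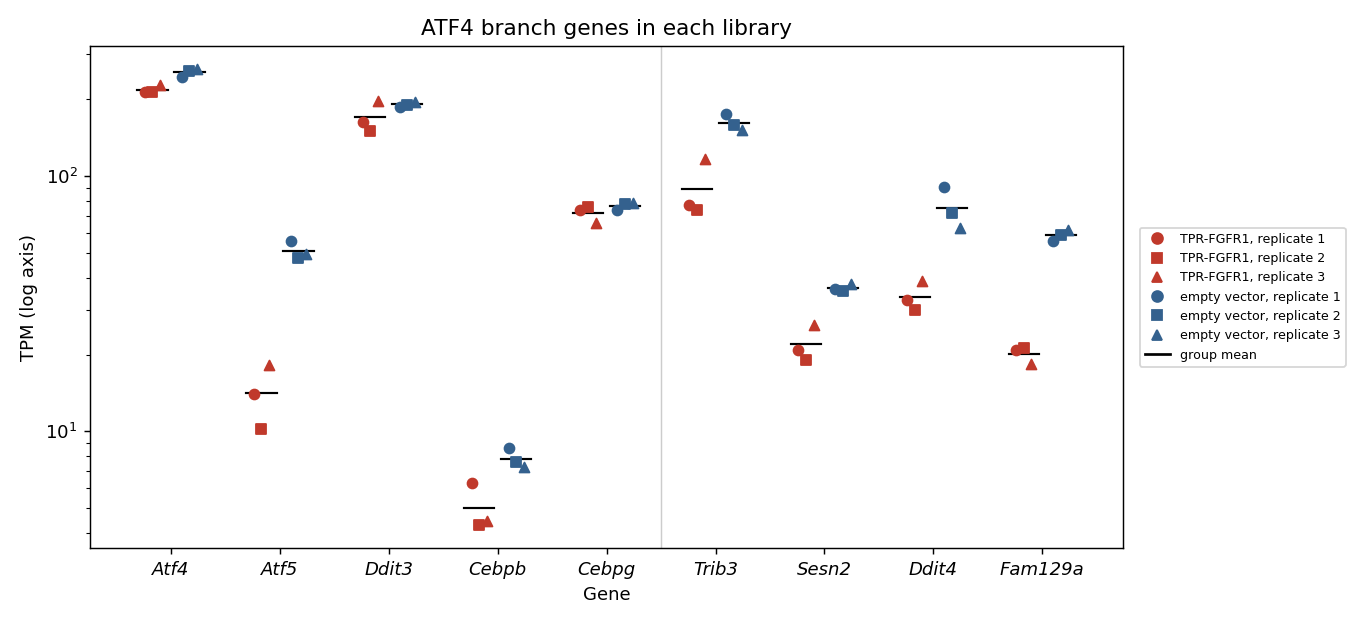
TPM (log axis) of the 9 tested members in each of the 3 TPR-FGFR1 and 3 empty vector libraries, with transcription factors left of the grey line, stress effectors right of it, and black bars at the group means. Atf5 and Fam129a show the widest gaps between the groups, while Ddit3 and Cebpg overlap.

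Atf4 was the most abundant member in both groups. It stood at 214.59, 213.04 and 227.13 TPM in the TPR-FGFR1 libraries and at 245.69, 258.58 and 263.63 TPM in the empty vector libraries. Every fusion library was thus lower, by a small step. The means were 218 ± 7.73 and 256 ± 9.25 TPM (SD, n = 3 per group), and the log2 fold change of −0.23 (SE 0.0710) missed the threshold (limma adjusted p = 0.0617). Without TPR-FGFR1 replicate 3 it passed (adjusted p = 0.00752), and with the correction for GC and transcript length described further on it stood at 0.01.

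Atf5 encodes a close relative of ATF4 whose translation is also favoured under stress, and it showed the largest fall of the 9. It had 14.04, 10.2 and 18.23 TPM in the TPR-FGFR1 libraries, against 55.52, 47.82 and 49.46 TPM in the empty vector libraries. The highest fusion value lay far below the lowest empty vector value, and the fusion mean was 27.8% of the empty vector mean. Atf5 fell by 1.81 on the log2 scale (SE 0.190, limma adjusted p = 0.00651), a value that was number 58 from the lowest among 12862 tested genes. The call was lost without empty vector replicate 2 (0.0551) or 3 (0.0513). Exons of Atf5 overlap those of Nup62 on the other strand, which averaged 34.1 ± 8.66 TPM in fusion cells and 40.1 ± 1.22 TPM in empty vector cells (SD, n = 3 per group). Because the strand setting of the counting is not given, reads of such a pair may have been mixed.

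Ddit3 encodes CHOP, a C/EBP-family factor known for its part in cell death after prolonged stress. Its values were 162.69, 149.81 and 197.5 TPM in the TPR-FGFR1 libraries and 187, 190.96 and 195.43 TPM in the empty vector libraries. The groups overlapped, because TPR-FGFR1 replicate 3 lay above every empty vector library. The Ddit3 log2 fold change was −0.18, with a 95% interval of −0.44 to 0.08 (limma adjusted p = 0.267). Without TPR-FGFR1 replicate 3 it was −0.29 and passed (adjusted p = 0.00752). Ddit3 shares exonic sequence with Mars on the other strand, at 44.36 to 63.02 TPM. A further ID with the symbol Ddit3, ENSMUSG00000116429, overlaps it on the same strand and was listed at 0 in all 6 libraries.

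The C/EBP factors can pair with ATF4. Cebpb, a regulator of inflammatory and stress genes, was the scarcest tested member, with 6.27, 4.28 and 4.44 TPM in fusion cells and 8.6, 7.56 and 7.24 TPM in empty vector cells. No values overlapped, and the fall had a log2 fold change of −0.57 (SE 0.150, limma adjusted p = 0.0410). That adjusted p was the largest of the 6. The call was lost without TPR-FGFR1 replicates 1 (0.0561) or 2 (0.124) and without empty vector replicates 1, 2 or 3 (0.138, 0.125 and 0.108), and the value corrected for GC and transcript length was 0.18. Exons of Cebpb overlap those of Tmem189 on the other strand, at 17.98 to 28.23 TPM. Cebpg, a short C/EBP protein that binds DNA mainly as a partner of other factors such as ATF4, had 73.55, 75.71 and 65.84 TPM in fusion cells and 73.39, 77.51 and 78.23 TPM in empty vector cells. These ranges overlapped, and the log2 fold change was −0.09, with a 95% interval of −0.28 to 0.10 (limma adjusted p = 0.427).

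Among the effectors, Fam129a had the smallest adjusted p. Its product, also named Niban1, is induced by stress and influences the phosphorylation of translation factors. Fam129a stood at 20.8, 21.26 and 18.44 TPM in the TPR-FGFR1 libraries and at 55.82, 58.97 and 61.38 TPM in the empty vector libraries. Both groups were tight and far apart. This gave a log2 fold change of −1.50 with an SE of 0.0853 (limma adjusted p = 0.00221), and Fam129a passed in all 22 alternative settings, with values from −1.61 to −1.34.

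Ddit4 encodes REDD1, which restrains the growth kinase complex mTORC1 under stress. It had 32.64, 29.79 and 38.69 TPM in fusion cells, against 90.7, 71.64 and 62.56 TPM in empty vector cells. The spread was wider in the empty vector libraries, but no value of theirs came near the fusion range. Ddit4 fell by 1.12 on the log2 scale (SE 0.156, limma adjusted p = 0.00913). The Ddit4 call was lost without TPR-FGFR1 replicate 1 (0.0580) or empty vector replicates 2 (0.0628) or 3 (0.0513).

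Sesn2 encodes sestrin 2, a leucine sensor that also restrains mTORC1. Its levels were 20.8, 18.98 and 26.06 TPM in fusion cells and 36.06, 35.49 and 37.66 TPM in empty vector cells. Again the groups did not overlap, and the fusion libraries varied more. The fall had a log2 fold change of −0.72 (SE 0.120, limma adjusted p = 0.0135), lost without TPR-FGFR1 replicate 1 (0.0704) or empty vector replicates 1, 2 or 3 (0.0596, 0.0699 and 0.0694).

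Trib3 encodes a pseudokinase that is induced by ATF4 and CHOP and in turn damps them. It had 77.33, 73.63 and 116.52 TPM in the TPR-FGFR1 libraries and 175.45, 158.42 and 151.7 TPM in the empty vector libraries. TPR-FGFR1 replicate 3 sat between its fellow fusion libraries and the empty vector libraries. Trib3 fell by 0.88 on the log2 scale (SE 0.176, limma adjusted p = 0.0201). The call was lost without TPR-FGFR1 replicates 1 (0.0895) or 2 (0.0668) and without empty vector replicates 1, 2 or 3 (0.0796, 0.0866 and 0.0761).

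Chac1 encodes an enzyme that breaks down glutathione and is often used as a sensitive marker of ATF4 activity. It was listed at 0 in all 3 TPR-FGFR1 libraries and in empty vector replicates 1 and 2, and at 0.04 TPM in empty vector replicate 3. No fold change is given for it. Its paralogue Chac2, which acts on the same substrate at a slower rate, was present at 26.5 ± 2.88 TPM with the fusion and 29.9 ± 1.13 TPM with the empty vector (SD, n = 3 per group, limma adjusted p = 0.228). Its log2 fold change was −0.17, and −0.40 in the GC-corrected fit, where it passed (limma adjusted p = 0.00782).

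The order of levels differed between the groups, read as TPM per library. In fusion cells it ran Atf4, Ddit3, Trib3, Cebpg, Ddit4, Sesn2, Fam129a, Atf5, Cebpb and Chac1, and only the neighbours Trib3 and Cebpg, and Sesn2 and Fam129a, overlapped in range. In empty vector cells it ran Atf4, Ddit3, Trib3, Cebpg, Ddit4, Fam129a, Atf5, Sesn2, Cebpb and Chac1, with overlap only between Cebpg and Ddit4. Atf5 and Fam129a thus stood above Sesn2 in every empty vector library, and Atf5 stood below it in every fusion library.

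Ratios between members within a library do not depend on how the library was scaled. For this, 7 pairs were chosen after their values were seen. The p-values of these ratios are therefore a description and not independent evidence. The Atf5 to Atf4 ratio was 0.0654, 0.0479 and 0.0803 in fusion cells and 0.226, 0.185 and 0.188 in empty vector cells. Atf5 was thus lower relative to Atf4 as well as on its own. Fam129a to Atf4 was 0.0926 ± 0.0100 with the fusion and 0.229 ± 0.00303 with the empty vector (SD, n = 3 per group). Trib3 to Ddit3 was 0.519 ± 0.0621 with the fusion and 0.848 ± 0.0826 with the empty vector, so the fusion libraries were lower. Ddit3 to Atf4 was 0.777 ± 0.0848 with the fusion and 0.747 ± 0.0123 with the empty vector, and these ranges overlapped (two-sided exact permutation p = 0.8). For the other 6 ratios, including Trib3 to Atf4, Ddit4 to Sesn2 and Cebpb to Cebpg, the fusion libraries were all lower (exact permutation p = 0.1 each, 0.117 adjusted over the 7). The members of a pair can differ in GC content, and the correction for GC and transcript length described further on moved some of these differences. The corrected values are on TPM + 1 and the ratios on TPM alone, so the shifts between them also hold that change of scale. As the difference between the log2 fold changes of the 2 genes, Cebpb to Cebpg was 0.45 with that correction, against a log2 ratio difference of −0.57 without it. Trib3 to Ddit3 was −0.19 with it, against −0.71, and Ddit3 to Atf4 was −0.34, against 0.05. Atf5 to Atf4 was −1.30 and Fam129a to Atf4 was −1.62 with the correction, against −1.65 and −1.31 without it.

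**Figure D2:**
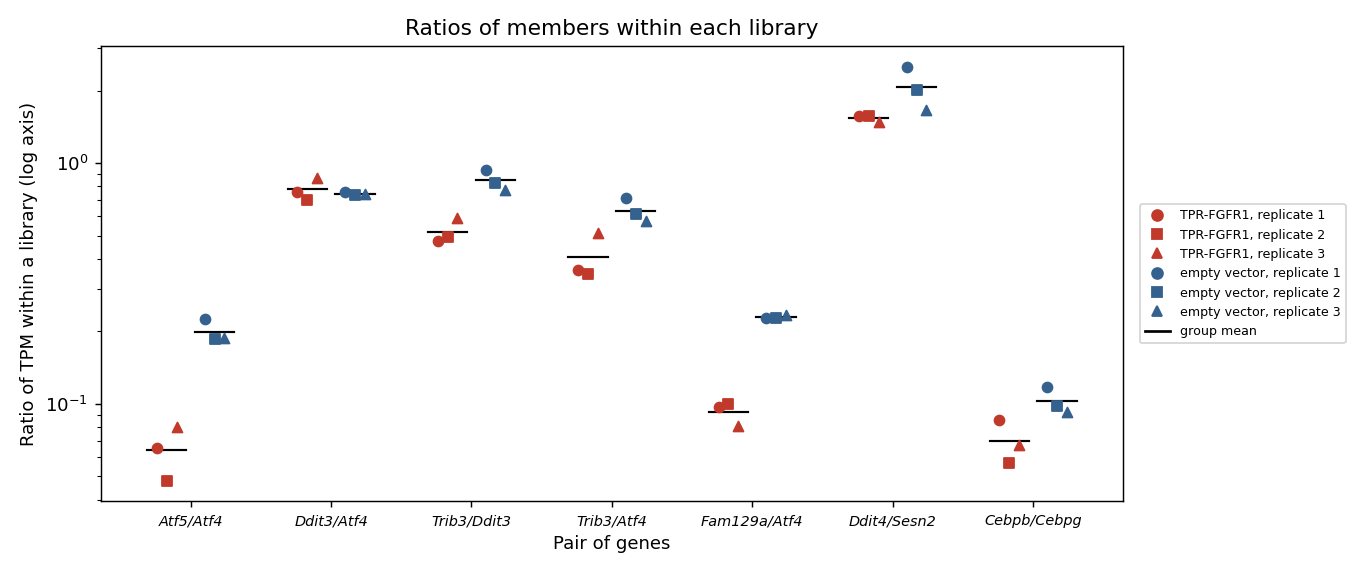
Ratio of TPM between pairs of members within each library (log axis), with black bars at the group means of 3 TPR-FGFR1 and 3 empty vector libraries. The Atf5 to Atf4 and Fam129a to Atf4 ratios separate the groups most widely, and Ddit3 to Atf4 does not separate them.

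TPR-FGFR1 replicate 3 was the highest of the 3 fusion libraries for 6 of the 9 tested members (Atf4, Atf5, Ddit3, Trib3, Sesn2 and Ddit4) and the lowest for Cebpg and Fam129a. Replicate 2 was the lowest for 7. The median difference of the 9 members from the empty vector mean, on the log2(TPM + 1) scale, was −0.78, −0.90 and −0.47 in fusion replicates 1, 2 and 3.

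GC content moved with the difference between the groups. With tested genes split into 5 equal bins by the GC content of the longest transcript, 21.8% fell in the highest bin (54.7% to 71.4% GC), 13.2% in the next and 2.71% in the lowest. Atf4, Atf5, Trib3, Sesn2, Cebpb and Ddit4 lie in the highest bin, and 5 of these 6 fell. Fam129a, with 48.1% GC, lies in the middle bin, where 8.73% fell. Ddit3 and Cebpg lie in the second lowest bin, where 4.35% fell. In the highest bin, the median difference of all genes from the empty vector mean was −0.42 and −0.56 in fusion replicates 1 and 2 but −0.07 in replicate 3. In that replicate the differences of Atf5, Ddit4, Cebpb, Trib3 and Sesn2 were −1.43, −0.92, −0.69, −0.47 and −0.47, that of Fam129a was −1.62, that of Atf4 was −0.17, and that of Ddit3 was 0.05. The part of GC content, and of replicate 3, in the result was not tested.

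**Figure D3:**
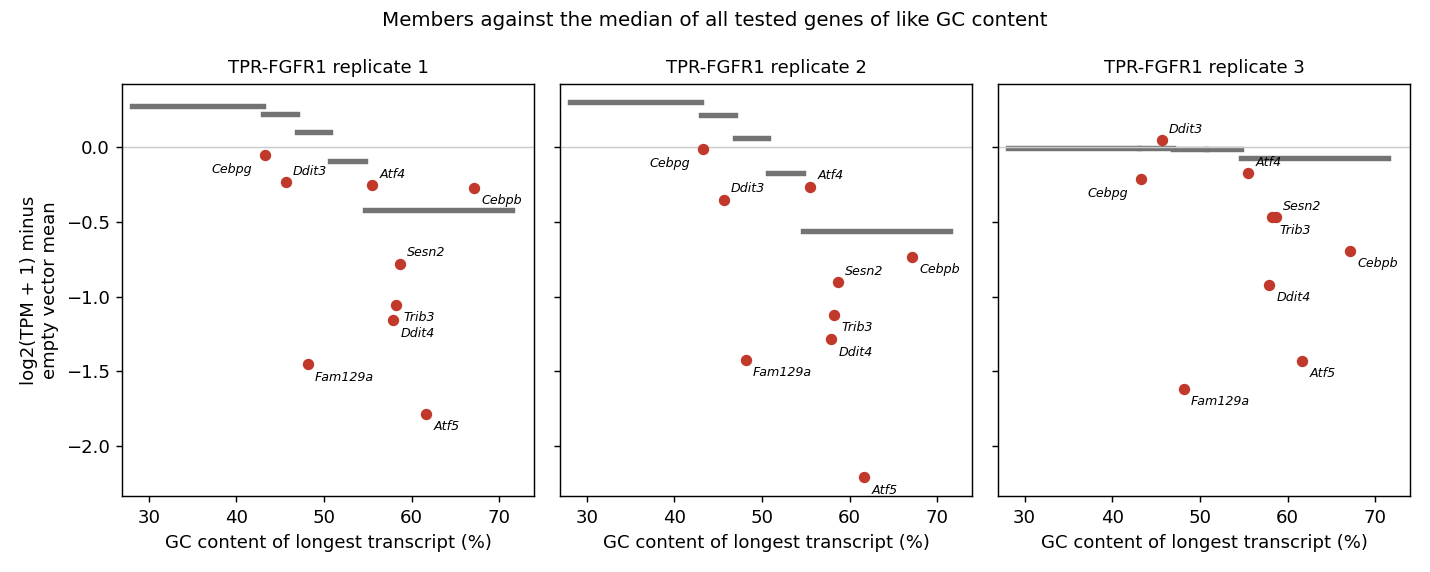
Difference of log2(TPM + 1) from the empty vector mean (y) against GC content of the longest transcript (x) in each TPR-FGFR1 library, with points for the 9 members and grey bars for the median of all tested genes in 5 GC bins. In replicates 1 and 2 the bars descend with GC content, while in replicate 3 they stay near 0, at −0.07 in the highest bin, and Atf5 and Fam129a lie far below the bars in all 3.

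A smooth trend over GC content and length was then removed from each library and the whole table refitted. Again 6 members fell and 0 rose, against 16.1% of genes that fell and 13.3% that rose, and the median over the 9 was −0.34. In all, 5 members were called lower in both fits: Atf5 (−1.30 after correction, limma adjusted p = 0.000969), Fam129a (−1.61, 0.000219), Ddit4 (−0.78, 0.00416), Trib3 (−0.52, 0.00255) and Sesn2 (−0.33, 0.0112). Cebpb was not (0.18, with a 95% interval of −0.45 to 0.80), and Cebpg was called lower instead (−0.27, 0.00889). Atf4 stood at 0.01 with a 95% interval of −0.20 to 0.21, and Ddit3 at −0.34 with an adjusted p of 0.129.

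**Figure D4:**
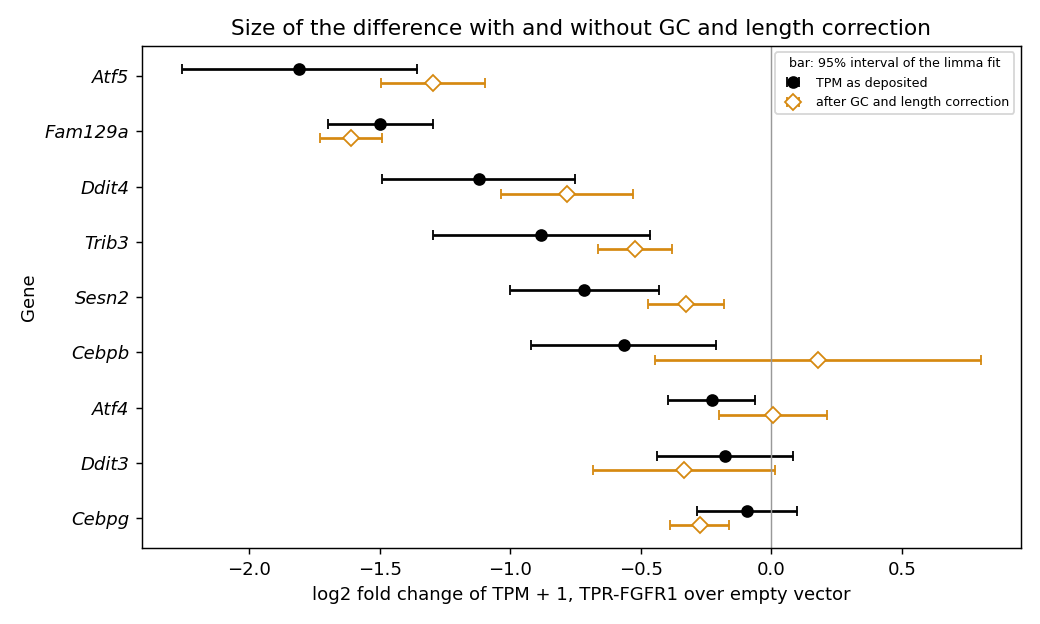
Log2 fold change of TPM + 1 (x), TPR-FGFR1 over empty vector, for each tested member, with 95% intervals of the limma fit on values as deposited (black circles) and corrected for GC and length (open diamonds). The intervals of Atf5, Fam129a, Ddit4, Trib3 and Sesn2 exclude 0 in both fits, while those of Cebpb and Atf4 do so only as deposited.

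Upstream of ATF4, 19 genes for eIF2 kinases, eIF2 and eIF2B subunits and their regulators were tested. Of these 2 rose and 1 fell, beside 10.2% and 10% of all tested genes, and the median log2 fold change was 0.02. Eif2ak4, which encodes the amino acid sensor GCN2, rose to 22.6 ± 0.709 TPM in fusion cells, against 16.7 ± 0.481 TPM in empty vector cells (SD, n = 3 per group, limma adjusted p = 0.0151). Eif2s1, which encodes the phosphorylated subunit of eIF2, also rose, with a log2 fold change of 0.49 (limma adjusted p = 0.0281). Ppp1r15a encodes GADD34, which helps reverse that phosphorylation and is itself a target of the pathway, and it fell to 108 ± 19.1 TPM in fusion cells, against 169 ± 5.69 TPM in empty vector cells (log2 fold change −0.65, adjusted p = 0.0183). The other kinase genes missed the threshold, with log2 fold changes of 0.28 for Eif2ak1 (the haem-regulated kinase), 0.01 for Eif2ak2 (PKR) and −0.22 for Eif2ak3 (PERK). Eif2ak1 passed in the GC-corrected fit (0.22, limma adjusted p = 0.0266). Both counts dropped to 0 when any library other than TPR-FGFR1 replicate 3 was left out. Without that one there were 6 rises and 4 falls, beside 3395 rises and 3012 falls among all 12862 tested genes.

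Of 32 tested targets of ATF4 in amino acid supply and one-carbon metabolism, 14 fell and 0 rose, beside 10% and 10.2% of all tested genes, and the median log2 fold change was −0.27. At an unadjusted p under 0.05, for which no share of all tested genes is given, the limma fit gave 18 lower and 0 higher. Slc6a9, a glycine transporter gene, fell to 16.04 ± 3.49 TPM in fusion cells, against 40.9 ± 1.76 TPM in empty vector cells (SD, n = 3 per group, limma adjusted p = 0.00651). The transporter genes Slc7a11 and Slc7a1 and the folate enzyme gene Mthfd2 also fell, by 1.11, 0.58 and 0.64 on the log2 scale. Asns and Psat1 did not pass, with log2 fold changes of 0.12 and 0.11 (limma adjusted p = 0.360 and 0.457). In the GC-corrected fit 17 fell and 2 rose, beside 16.1% and 13.3% of all genes in that fit. The rises were Aars (0.32, limma adjusted p = 0.0106) and Cars (0.24, 0.0414). The count of falls was 0 without empty vector replicate 2 or 3, 5 and 7 without TPR-FGFR1 replicates 1 and 2, 6 without empty vector replicate 1, and 19 when TPR-FGFR1 replicate 3 was left out. In that last setting 3012 of all 12862 tested genes fell.

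Of 14 tested genes on a list of other stress targets of ATF4, 6 fell and 1 rose, beside 10% and 10.2% of all tested genes, with a median of −0.29. The falls include Ppp1r15a, counted above, and Gpt2, an alanine aminotransferase gene that is also among the amino acid targets. Jdp2, which encodes a bZIP repressor, fell to 12.9 ± 3.70 TPM with the fusion, against 30.2 ± 0.595 TPM with the empty vector (SD, n = 3 per group, limma adjusted p = 0.0107). Nupr1, a small stress-induced chromatin protein gene, fell by 0.82 on the log2 scale, and Eif4ebp1, which encodes an inhibitor of translation initiation, fell by 0.95. Sqstm1, which encodes the autophagy receptor p62, fell by 0.51. Map1lc3b was the 1 gene that rose, to 95.8 ± 8.84 TPM with the fusion, against 72.4 ± 3.69 TPM with the empty vector (SD, n = 3 per group). Its log2 fold change was 0.40 (limma adjusted p = 0.0275), and 0.44 in the GC-corrected fit (0.0105). Atf3, a classical target, was under the filter at 0.127 ± 0.0850 TPM with the fusion and 0.113 ± 0.127 TPM with the empty vector. The count of falls was 4 without TPR-FGFR1 replicate 2, 10 without replicate 3 and 0 without any other library. Without replicate 3, 3012 of all 12862 tested genes fell.

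Among 10 genes linked to CHOP in cell death and protein load, all tested, 4 fell and 0 rose, beside 10% and 10.2% of all tested genes. Those that fell were Dnajc3, which encodes an inhibitor of PERK (log2 fold change −0.74), Ppp1r15a, and the pro-apoptotic genes Bax (−0.87) and Bbc3 (−1.87). With an unadjusted limma p under 0.05, 4 were lower and 1 higher, and no share of all tested genes is given for that threshold. Bbc3 varied widely, at 3.46 ± 3.28 TPM in fusion cells and 13.6 ± 6.14 TPM in empty vector cells (SD, n = 3 per group). The GC-corrected Bax value was −0.29 (limma adjusted p = 0.0955). Falls numbered 0 without empty vector replicates 2 or 3, 1 without empty vector replicate 1 or TPR-FGFR1 replicates 1 or 2, and 5 without TPR-FGFR1 replicate 3. That last setting had 3012 falls among all 12862 tested genes.

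The other branches of the unfolded protein response, driven by IRE1 and ATF6, fell in 16 of 22 tested genes, with 0 rises, beside 10% and 10.2% of all tested genes, and a median of −0.44. The limma fit gave 18 lower and 0 higher at an unadjusted p under 0.05, for which no share of all tested genes is given. Xbp1, which encodes the factor activated by IRE1, fell to 147 ± 9.81 TPM in fusion cells, against 203 ± 6.97 TPM in empty vector cells (SD, n = 3 per group, limma adjusted p = 0.0139). Sdf2l1, which encodes a protein of the endoplasmic reticulum that works with chaperones, fell to 33.8 ± 0.923 TPM in fusion cells, against 71.9 ± 1.46 TPM in empty vector cells (SD, n = 3 per group, limma adjusted p = 0.00221). Falls numbered 1 and 3 without empty vector replicates 3 and 2, 6 and 9 without TPR-FGFR1 replicate 1 and empty vector replicate 1, 10 without TPR-FGFR1 replicate 2 and 19 without TPR-FGFR1 replicate 3. That last count stands beside 3012 falls among all 12862 tested genes.

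**Figure D5:**
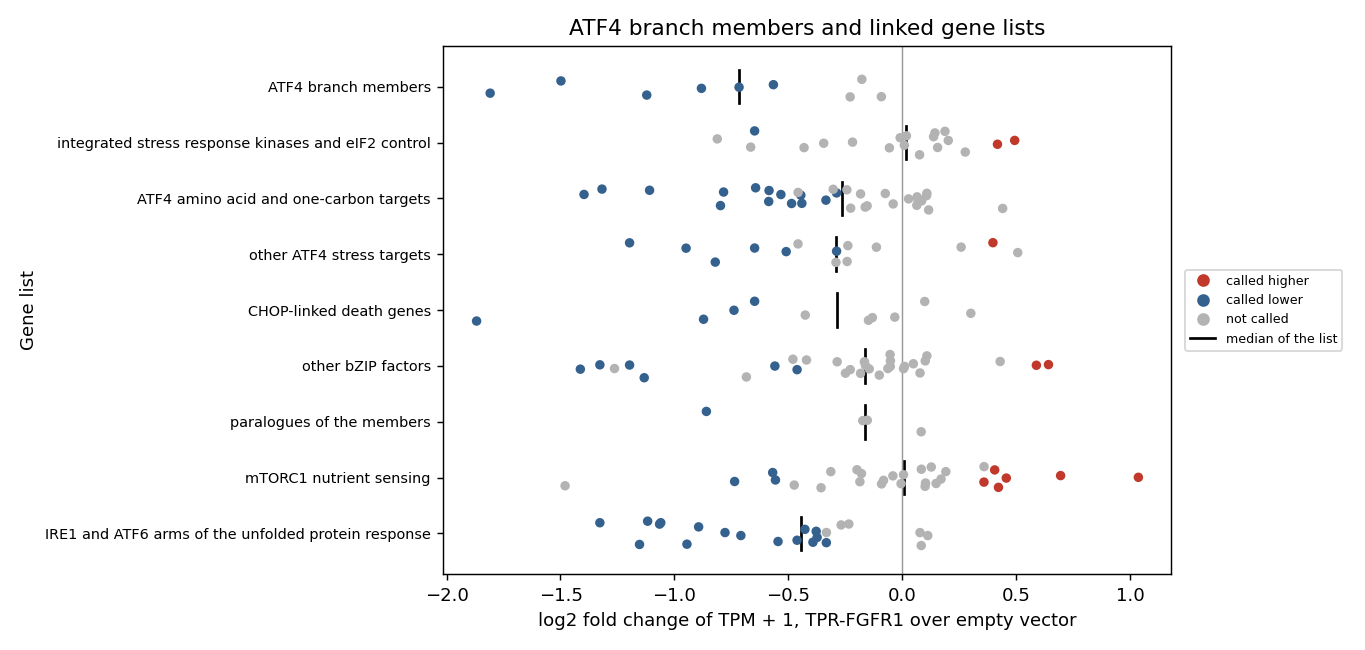
Log2 fold change of TPM + 1 (x), TPR-FGFR1 over empty vector, for each tested gene of the ATF4 branch and of 8 linked lists, coloured by the call at a limma adjusted p under 0.05, with black bars at the medians. On these values the 9 members have the lowest median (−0.72), but with correction for GC and length theirs is −0.34 and that of the IRE1 and ATF6 list is −0.57.

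Sesn2 and Ddit4 both act on mTORC1, and of 29 tested genes of nutrient sensing by mTORC1, 6 rose and 3 fell, beside 10.2% and 10% of all tested genes, with a median of 0.01. Deptor, which encodes an inhibitor of mTOR, rose to 8.54 ± 1.47 TPM with the fusion, against 3.61 ± 0.127 TPM with the empty vector (SD, n = 3 per group, limma adjusted p = 0.00822). The Rag GTPase genes Rraga and Rragb rose by 0.69 and 0.42 on the log2 scale. Sec13, whose product serves both a nutrient-sensing complex and vesicle coats, fell by 0.74. Rises numbered 10 without TPR-FGFR1 replicate 3, 2 without TPR-FGFR1 replicate 2, 1 without empty vector replicate 1 and 0 without any other library. Without TPR-FGFR1 replicate 3, 3395 of all 12862 tested genes rose.

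Of 8 paralogues of the members, 4 were tested, 1 fell and 0 rose, beside 10% and 10.2% of all tested genes. The limma counts at an unadjusted p under 0.05 were 1 lower and 0 higher, with no share of all tested genes given. In the GC-corrected fit Chac2 fell too. Fam129b fell to 5.91 ± 1.57 TPM in fusion cells, against 11.3 ± 0.642 TPM in empty vector cells (SD, n = 3 per group, limma adjusted p = 0.0184), a call lost without any library but TPR-FGFR1 replicate 3. Sesn1 stood at 19.8 ± 1.97 TPM with the fusion and 18.6 ± 1.37 TPM with the empty vector (adjusted p = 0.579 in the limma fit). Fam129c stood at 11.8 ± 0.803 TPM with the fusion and 13.3 ± 1.65 TPM with the empty vector (adjusted p = 0.333 in the limma fit). Trib1 and Sesn3 were under the filter, at no more than 0.760 TPM in the mean of either group, and Trib2 and Ddit4l were listed at 0.

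Genes with the most similar profile were sought for 1 member that fell and 1 that did not pass, by the smallest root mean square difference of centred log2(TPM + 1) values over the 6 libraries, among tested genes that averaged 5 TPM or more. For Atf5 these were Angptl6 (0.130), Trmt61a (0.197), Lyl1 (0.219), Il23a (0.227) and Ltb (0.232). Angptl6 averaged 13.9 ± 4.82 TPM in fusion cells and 42.6 ± 3.39 TPM in empty vector cells (SD, n = 3 per group), which is close to Atf5 in level too. For Ddit3 they were Dcxr (0.0128), H2-D1 (0.0143), Tubb5 (0.0193), Sema4d (0.0235) and Plekhg3 (0.0305).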

How the data were processed

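RNA from 3 TPR-FGFR1 and 3 empty vector Ba/F3 libraries was sequenced with a stranded mRNA kit, per the labels' protocols. The authors deposited 1 table of TPM values, with gene IDs of Ensembl form. Per the submitters' processing notes, fastp, HISAT2 and StringTie and build GRCm39 were used; the sources used here give no versions, annotation or strand option for them. Of the IDs, 91.3% matched a GENCODE M21 symbol. Each library had the same TPM sum, so its depth cannot be read from it, and 12679 to 12839 genes reached 1 TPM. Protein sequences were not used here.

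The 12862 genes averaging 1 TPM or more were tested on log2(TPM + 1) with limma 3.58.1 in R 4.3.3, with a mean-variance trend, Benjamini-Hochberg adjustment over all of them, and a call at an adjusted p under 0.05. Fold changes on this scale understate those of low genes. In simulated data on these 12862 genes, the test found 29.9% of 1.5-fold, 56.7% of 2-fold and 89.4% of 4-fold changes, with 6 false calls. The simulated noise was independent between genes, only 200 genes were changed, and no trend over GC content was included. The number of false calls in the real libraries therefore cannot be read from it. Single values and ratios had two-sided exact permutation tests. GC content and length were corrected by a spline on the longest GENCODE M21 transcript. In all, 22 alternatives were run. All 10 members are named, and in each list up to 4 genes of smallest adjusted p, the eIF2 kinases, Ppp1r15a, Atf3, Xbp1 and all paralogues. The members and lists were chosen with earlier results of these data known. Other genes are named where they are markers, overlap a member or have a similar profile. Asns, Psat1, Aars, Cars and Map1lc3b are named as targets that did not fall, and Gpt2 as a stress target that is also among the amino acid targets.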

Additional observations from a re-analysis of the deposited data

How the results depend on the processing

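Of the 16 alternatives that did not only leave out 1 library, 13 called at least 6 members lower. Dropping 1 library at a time called 1 to 8 members lower and 0 higher, with the lowest count without empty vector replicates 2 or 3 and the highest without TPR-FGFR1 replicate 3, where calls over all genes also ranged from 8 to 3012 lower against 1291 in the full data. Of 154 tested genes in the pathway lists, each counted 1 time, 45 fell and 11 rose in the full data, beside 10% and 10.2% of all tested genes. Dropping 1 library at a time, 1 to 72 fell and 0 to 25 rose, beside 8 to 3012 and 3 to 3395 of all 12862 tested genes. The direction of Atf4 was reversed by the correction for GC content and length (0.0060, also with the replicate block, and 0.0890 without TPR-FGFR1 replicate 3), as was that of Cebpb (0.18, also with the replicate block, and 0.48 without TPR-FGFR1 replicate 3, where 1 member was called higher). The cause was not tested. Libraries with the same number did not deviate together (correlations −0.193, −0.0750 and −0.153), and 0 of 3 in each group correlated best with its own number. This gave no sign of pairing by number, but 3 libraries a group cannot exclude it. With the replicate block 5 members fell, with Cebpb at a limma adjusted p of 0.0590, and the lists held 26 falls and 3 rises, or 39 falls and 7 rises with the correction for GC content as well. Without the filter on low values 4 members fell, and the lists held 28 falls and 4 rises. With library weights 8 fell, and the lists held 80 falls and 40 rises. Those weights were 13.2, 0.483 and 0.0992 for TPR-FGFR1 replicates 1, 2 and 3, so the fusion group rested almost wholly on replicate 1 in that setting. Over all genes the falls and rises were 1291 and 1309 in the full data, 526 and 620 without the filter, and 421 and 343 with the replicate block. They were 4143 and 5138 with library weights, and 2018 and 1663 with the GC and length correction. With that correction they were 1011 and 765 with the replicate block, and 2354 and 2000 without TPR-FGFR1 replicate 3. With 3 libraries a group and depth unknown, Chac1 and other genes near 0 TPM could not be compared.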

Other observations

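Other bZIP transcription factors, the family of ATF4, were also measured. Of 41 listed, 31 were tested, 6 fell and 2 rose, beside 10% and 10.2% of all tested genes, with a median log2 fold change of −0.16. Fos, a stress and growth factor response gene, fell to 85.8 ± 9.09 TPM in TPR-FGFR1 cells, against 127 ± 4.73 TPM in empty vector cells (SD, n = 3 per group, limma adjusted p = 0.0131). Cebpe, a factor of granulocyte maturation, fell to 3.31 ± 1.39 TPM in TPR-FGFR1 cells, against 10.4 ± 3.02 TPM in empty vector cells (SD, n = 3 per group, limma adjusted p = 0.0172). Jdp2 and Xbp1 also fell. The count of falls was 3 without TPR-FGFR1 replicate 2, 12 without TPR-FGFR1 replicate 3 and 0 when any other library was dropped. Without TPR-FGFR1 replicate 3, 3012 of all 12862 tested genes fell.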
